A study of Mus musculus with 4 samples.

Results

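Among the genes that fell most in the second heart field (SHF) region of Hoxb1 mutant embryos were 8 that encode enzymes, a transporter, a scaffold and receptors rather than regulators of the heart field: the enzymes Sardh, Kmo, Fmo4 and Sod3, the transporter Slco4c1, the scaffold Pdzd3, and the receptors Klb and Prlr. They are 8 of the 15803 genes listed for these libraries. They were selected on their normalised counts in these same libraries, as named genes averaging 100 or more over the 4 libraries that were among the deepest falls in Hoxb1Mu. Other genes of this abundance fell as far or further, and the 8 also belong to the genes that DESeq2 called, a call that depends on the spread within groups. The contrast between Hoxb1Mu and WT is therefore given for them as a description, without a test. RNA-seq had been performed at E8.5 on microdissected tissue of 2 wild-type libraries (WT 1 and WT 2) and 2 libraries of the Hoxb1Mu genotype (Hoxb1Mu 1 and Hoxb1Mu 2). Per the methods of the study, these were Hoxb1-/- embryos lacking this homeobox gene of posterior cardiac progenitors from the germ line on, and each library pooled RNA of several embryos. Nothing in the labels ties the libraries of a genotype to separate litters, so p-values measure only the spread between these libraries. The comparison asks which genes depend on Hoxb1 in the SHF region, a pool of cardiac progenitors that the growing heart tube draws on.

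The visceral endoderm of the yolk sac is an absorptive and secretory epithelium that surrounds the embryo at this stage. It takes up proteins and vitamins from outside through the receptors cubilin (Cubn), amnionless (Amn) and megalin (Lrp2), and it exports lipoproteins built on apolipoprotein B (Apob). Many genes of this tissue are later used in the liver, the kidney tubule and the intestine, where the roles of Sardh, Fmo4, Klb, Kmo, Slco4c1 and Pdzd3 are best known. Apob and Cubn therefore served as gauges of yolk sac endoderm in each library.

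Reads assigned to listed genes ranged from 31331595 to 34383760 per library. Hoxb1 itself had 682 and 617 normalised counts (read counts divided by a size factor of each library) in WT 1 and WT 2, against 137 and 167 in Hoxb1Mu 1 and Hoxb1Mu 2, a log2 fold change of -2.09 ± 0.14 (SE). All 12 SHF markers were detected, with summed counts of 12488 to 14324 per library. Some libraries stood apart. The 8 primitive red blood cell markers summed to 582 counts in WT 1 but 16190 in WT 2, with 2886 and 934 in the Hoxb1Mu libraries. Xist, the RNA of the inactive X chromosome, had 26992 and 32024 counts in WT and 111 and 5935 in Hoxb1Mu. None of the 8 genes lies on the X chromosome, and the part of embryo sex in their levels was not tested. The 19 yolk sac visceral endoderm markers summed to 163544 and 159448 counts in WT 1 and WT 2 and to 106498 and 54248 in Hoxb1Mu 1 and Hoxb1Mu 2, so that this tissue's transcripts were present in all 4 libraries and lowest in Hoxb1Mu 2.

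All 8 genes had the same order of groups, with both Hoxb1Mu libraries below both WT libraries and Hoxb1Mu 2 the lowest. Over all 15760 genes tested, 4264 (27.1%) had both Hoxb1Mu libraries below both WT libraries. Their log2 fold changes ran from -1.58 for Pdzd3 to -1.30 for Prlr, with a median of -1.36 where all genes tested had a median of 0.00061. A log2 fold change of -1 or lower was found for 293 genes (1.86%). Since the fall was the criterion, nothing is read from these counts for the 8 genes.

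**Figure D1:**
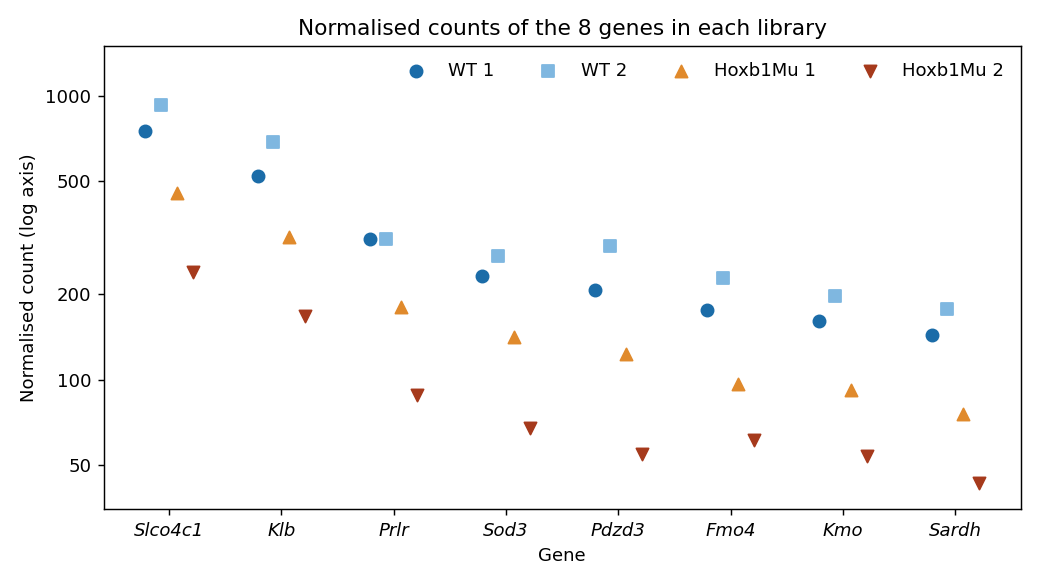
Normalised counts (vertical log axis) of the 8 genes in each of the 4 libraries, 1 point per gene and library. For every gene both Hoxb1Mu libraries lie under both WT libraries, and Hoxb1Mu 2 is the lowest.

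The first enzyme, Sardh (sarcosine dehydrogenase), oxidises sarcosine to glycine in mitochondria and passes a methyl-derived carbon to folate. Sardh had 143 and 178 normalised counts in WT 1 and WT 2 and 75.9 and 43.4 in Hoxb1Mu 1 and Hoxb1Mu 2. The groups did not overlap, and the Hoxb1Mu libraries held 47.2% and 27.0% of the WT mean of 161 ± 24.4 (SD, n = 2). The log2 fold change was -1.46 ± 0.30 (SE). Sardh (ENSMUSG00000009614.16) lies on the minus strand of mm10 chromosome 2 from 27188393 to 27248337, with 5432 exonic bases. An antisense gene, Sardhos, shares 188 exonic bases with it, and whether reads were counted by strand is not given in the sources used here.

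Of 20 other enzymes of sarcosine, choline, glycine and folate metabolism, 19 were measured. DESeq2 on the recovered reads called 4 of these lower and 0 higher, where over all genes with an adjusted p it called 319 of 11788 lower (2.71%) and 237 higher (2.01%). The 4 genes fell far less than Sardh. Gldc, the decarboxylase of the glycine cleavage system, had 7823 and 8035 counts in WT and 6105 and 4932 in Hoxb1Mu (log2 fold change -0.53, adjusted p = 2.70e-05 by DESeq2). Gcsh, the carrier protein of the same system, had a log2 fold change of -0.29 (adjusted p = 0.0338 by DESeq2). Aldh7a1, which oxidises betaine aldehyde, had -0.32 (adjusted p = 0.0243) and the folate enzyme Mthfd1 had -0.19 (adjusted p = 0.0187), both by DESeq2. Leaving out 1 library at a time ended the call of Mthfd1 in all 4 DESeq2 fits, of Gcsh and Aldh7a1 in 3 and of Gldc in the 2 fits without a WT library. The closest relative in the pathway, Dmgdh (dimethylglycine dehydrogenase), had 51.0 and 73.1 counts in WT and 22.6 and 22.6 in Hoxb1Mu, and Bhmt2 had 102 and 165 against 71.8 and 23.6. Both were too low for DESeq2 to give an adjusted p, and they were picked after their values were seen.

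Kmo (kynurenine 3-monooxygenase) hydroxylates kynurenine, the product of tryptophan breakdown, at the outer mitochondrial membrane. Kmo had 161 and 197 normalised counts in WT 1 and WT 2 and 92.3 and 53.8 in the 2 Hoxb1Mu libraries. The WT mean was 179 ± 25.2 and the Hoxb1Mu mean 73.0 ± 27.2 (SD, n = 2), with a log2 fold change of -1.33 ± 0.29 (SE) and no overlap. Kmo (ENSMUSG00000039783.15) occupies chromosome 1 from 175620381 to 175662116 on the plus strand. The gene on the other strand that overlaps its body, Fh1, shares 0 exonic bases with it and had 5099 and 4797 counts in WT and 4675 and 4409 in Hoxb1Mu.

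Among 12 other genes of the kynurenine pathway, 10 were measured and 1 was called by DESeq2. This was Qprt, which makes nicotinic acid mononucleotide from quinolinic acid, with 873 and 786 counts in WT and 644 and 520 in Hoxb1Mu (log2 fold change -0.52, adjusted p = 0.0435 by DESeq2). The call of Qprt held in 1 of the 4 fits that left out a library. Haao, which makes the precursor of quinolinic acid, had 34 and 79.8 counts in WT and 20.5 and 10.4 in Hoxb1Mu (log2 fold change -1.77, with counts too low for an adjusted p), and Kynu (kynureninase) had 175 and 216 against 117 and 83.9 (-0.97, adjusted p = 0.0581 by DESeq2). In both, as in Kmo, the groups did not overlap. Tdo2, which starts the pathway from tryptophan, had overlapping groups. The WT libraries had 829 and 1893 counts of Tdo2, and the Hoxb1Mu libraries 1456 and 264, so that Hoxb1Mu 1 lay between the WT libraries. Haao, Kynu and Tdo2 were picked after their values were seen.

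Fmo4 encodes a flavin-containing monooxygenase, a family of enzymes of the endoplasmic reticulum that oxidises nitrogen and sulphur compounds, foreign ones among them. Fmo4 had 176 and 228 normalised counts in WT and 96.4 and 61.3 in Hoxb1Mu. Its log2 fold change was -1.37 ± 0.27 (SE), and the groups did not overlap. Fmo4 (ENSMUSG00000026692.12) lies on chromosome 1 from 162793188 to 162813972, on the minus strand. Of 6 other members of the family 3 were measured, and 0 were called by limma, DESeq2 or edgeR (0 at an unadjusted p under 0.05 by each). Only 1 of the 3 had an adjusted p from DESeq2, and over all genes limma and edgeR called 0. Fmo1, 15.6 kb from Fmo4, had 353 and 477 counts in WT and 419 and 194 in Hoxb1Mu, and Fmo2 had 59.5 and 89.5 against 64.6 and 18.9. In both genes Hoxb1Mu 1 lay between the WT libraries, unlike in Fmo4.

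Sod3 is the superoxide dismutase that is secreted and binds to the extracellular matrix. Sod3 reached 233 and 272 normalised counts in the WT libraries, against 142 for Hoxb1Mu 1 and 67.9 for Hoxb1Mu 2. The log2 fold change was -1.35 ± 0.34 (SE) and the groups did not overlap. Sod3 (ENSMUSG00000072941.5) lies on the plus strand of chromosome 5 from 52363791 to 52371418. All 18 other genes of superoxide and peroxide removal on the list were measured, and DESeq2 called 1 lower. This was Gpx1, a cytosolic glutathione peroxidase, with 5410 and 6028 counts in WT and 4817 and 4487 in Hoxb1Mu (log2 fold change -0.30, adjusted p = 0.0103 by DESeq2, and called in 2 of the 4 fits that left out a library). The intracellular dismutases had log2 fold changes of -0.14 (Sod1) and -0.14 (Sod2), and neither was called.

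Slco4c1, an organic anion transporter that in the kidney carries steroid conjugates, thyroid hormone and cardiac glycosides, was the most abundant of the 8 genes. Slco4c1 had 751 and 925 normalised counts in WT and 456 and 241 in Hoxb1Mu. The WT mean was 838 ± 123 and the Hoxb1Mu mean 348 ± 153 (SD, n = 2), with a log2 fold change of -1.33 ± 0.29 (SE) and no overlap. Per kilobase of exon it also had the highest level, with 171 normalised counts in WT and 71.0 in Hoxb1Mu, where Prlr had the lowest with 20.4 and 8.77. Slco4c1 (ENSMUSG00000040693.7) lies on the minus strand of chromosome 1 from 96816270 to 96872171.

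Of 14 other transporters of the Slco family 6 were measured, and DESeq2 gave an adjusted p for 2 of the 6. None of the 6 was called by any of the 3 tools, with 1 at an unadjusted p under 0.05 by limma, 1 by edgeR and 0 by DESeq2. The most abundant of the 6, Slco3a1, had 607 and 596 counts in WT and 599 and 636 in Hoxb1Mu, and Slco5a1 had 525 and 611 against 602 and 544. The groups overlapped for both, with log2 fold changes of 0.04 and 0.02.

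Pdzd3 is a scaffold with PDZ domains that anchors transporters and the guanylyl cyclase C receptor under the apical membrane of intestinal and kidney epithelia. It had the deepest fall of the 8. Pdzd3 had 207 and 296 normalised counts in WT and 123 and 54.7 in Hoxb1Mu, a log2 fold change of -1.58 ± 0.39 (SE) with no overlap. The Hoxb1Mu libraries thus held 48.9% and 21.7% of the WT mean. Pdzd3 (ENSMUSG00000032105.5) covers chromosome 9 from 44247307 to 44251471 on the minus strand.

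Of 10 other scaffolds of the apical membrane and their partners 7 were measured, and DESeq2 called 2 lower, with the smallest adjusted p of the pathway genes. Ezr (ezrin), which links membrane proteins to actin in microvilli, had 12037 and 12327 counts in WT and 8812 and 7423 in Hoxb1Mu (log2 fold change -0.59, adjusted p = 2.25e-09 by DESeq2). Slc9a3r1, the scaffold that binds ezrin, had 7623 and 8324 against 5733 and 4727 (log2 fold change -0.61, adjusted p = 2.90e-07 by DESeq2). Both stayed called in all 4 DESeq2 fits that left out a library. Pdzk1, a scaffold with 566 and 773 counts in WT and 479 and 178 in Hoxb1Mu, and the phosphate transporter Slc34a2, with 248 and 307 against 176 and 82.1, stood at -1.18 and -1.19 on the log2 scale without a call. The last 2 were picked after their values were seen.

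Klb (beta-Klotho) is the co-receptor that lets FGF receptors bind the endocrine growth factors FGF15 and FGF21. Klb had 521 and 687 normalised counts in WT and 319 and 168 in Hoxb1Mu. The means were 604 ± 118 and 243 ± 107 (SD, n = 2), the log2 fold change was -1.37 ± 0.31 (SE), and the groups did not overlap. Klb (ENSMUSG00000029195.10) lies on the plus strand of chromosome 5 from 65348314 to 65384007. Of 9 other genes of this system 5 were measured, and DESeq2 called 1 higher and 1 lower. Fgf15, the ligand, was higher, with 1309 and 1124 counts in WT and 1670 and 1712 in Hoxb1Mu (log2 fold change 0.48, adjusted p = 0.00291 by DESeq2), a call that was lost in each of the 4 fits without a library. Fgfr3 was lower (log2 fold change -0.45, adjusted p = 0.0157 by DESeq2, called in 1 of those fits). Fgfr4, the receptor that Klb pairs with in liver, had 427 and 462 counts in WT and 347 and 248 in Hoxb1Mu and was not called, and Fgfr1 had a log2 fold change of -0.02.

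Prlr is the receptor for prolactin and placental lactogens and signals through Jak2 and Stat5. Prlr reached 312 and 315 normalised counts in the WT libraries, against 180 for Hoxb1Mu 1 and 88.7 for Hoxb1Mu 2. The WT libraries were nearly equal, with a mean of 313 ± 1.54 (SD, n = 2), and both Hoxb1Mu libraries lay below them (log2 fold change -1.30 ± 0.32, SE). Prlr (ENSMUSG00000005268.20) lies on the plus strand of chromosome 15 from 10177238 to 10349180. The gene Gm21973 shares 203 exonic bases with it on the same strand, so reads in these bases are uncertain. Of 15 other genes of prolactin and growth hormone signalling 13 were measured, and 0 were called by limma, DESeq2 or edgeR (0 at an unadjusted p under 0.05 by each). DESeq2 gave an adjusted p for 7 of the 13. Jak2 had 1293 and 1204 counts in WT and 1332 and 1124 in Hoxb1Mu. The prolactin family gene Prl8a2, a product of the decidua, had 686 and 1823 counts in WT and 3365 and 397 in Hoxb1Mu, with overlapping groups.

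Over the 8 lists, 81 of 104 genes were measured, and DESeq2 called 9 lower and 1 higher among the 59 with an adjusted p. Over all genes with an adjusted p, DESeq2 called 2.71% lower and 2.01% higher. limma on log2 values and the edgeR quasi-likelihood test called 0 of the 81 at an adjusted p under 0.05, with 27 and 24 at an unadjusted p under 0.05. Over all genes these tools also called 0 of 15760 (0%) and 0 of 15732 (0%), with smallest adjusted p of 0.0806 by limma and 0.0594 by edgeR, and 2935 and 2874 genes at an unadjusted p under 0.05. The median log2 fold change of the 81 genes was -0.15, and 41 (50.6%) had both Hoxb1Mu libraries below both WT libraries, against 27.1% of all genes tested. Of the 9 with a log2 fold change of -1 or lower, 0 were called. Several of these, Dmgdh, Bhmt2, Fmo2 and Haao included, had counts too low for an adjusted p from DESeq2 and so could not be called by it.

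**Figure D2:**
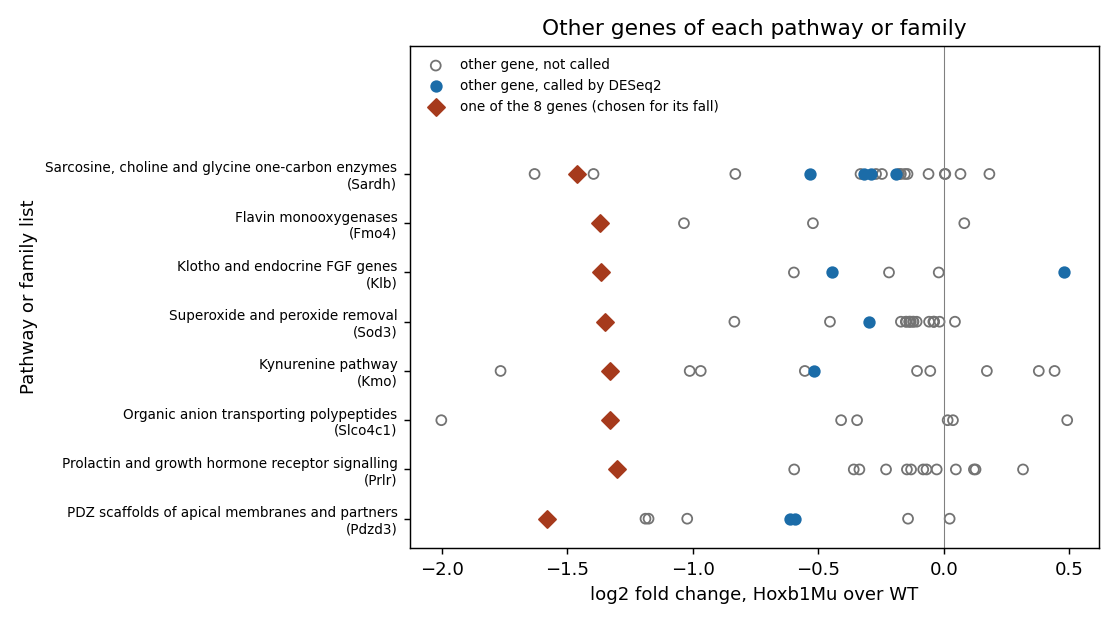
Log2 fold change of Hoxb1Mu over WT (horizontal axis) for the other genes of the pathway or family of each of the 8 genes, 1 row per list, with genes called by DESeq2 filled in blue, others open, and the 8 genes as red diamonds. The called genes lie between -0.61 and 0.48, while the 8 genes lie between -1.58 and -1.30.

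The regions upstream of RefSeq start sites of the members were searched for letters that liver and endoderm factors are known to bind. RefSeq promoter sequences (GRCm38.p6) were found for 7 of the 8 genes, with 9 start sites in all. These starts are not always the gene ends given above. The bases searched for Kmo (chr1:175631943-175632192), Fmo4 (chr1:162812550-162812799) and Sardh (chr2:27247304-27247553) lay inside the stated spans. So did those of the second and last Prlr starts. In the 250 bases before each start, both strands were searched for CAAAGTCCA (HNF4) and TTAATNATT (HNF1), which 0.384% and 1.40% of 32851 promoters held. For FOXA the letters were TGTTTAC, held by 3.17%. For the GATA factors they were AGATAA, held by 9.99%. Matches were found only at Prlr, for FOXA at the second of its 3 start sites (215 to 209 bases before it) and for HNF1 at the last (205 to 197 bases before it), and a match for HNF1 was also found 187 to 179 bases before the start of Cubn. The 3 windows are shown 5′ to 3′ on the strand of the gene, with the matched letters in capitals, because they are the only matches among the members and gauges. The Prlr windows are chr15:10223666-10223722 and chr15:10293421-10293479 on the plus strand, and that of Cubn is chr2:13492030-13492088 on the minus strand, where the match is to the reverse complement of the motif.
Prlr, second start: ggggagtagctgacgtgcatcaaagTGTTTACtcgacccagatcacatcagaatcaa
Prlr, last start: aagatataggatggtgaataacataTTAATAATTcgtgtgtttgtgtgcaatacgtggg
Cubn: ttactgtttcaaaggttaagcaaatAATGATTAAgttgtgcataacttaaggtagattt
No match says only that these letters are not in the window.

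The 8 genes lie on chromosomes 1, 2, 5, 9 and 15, and the genes beside them were next described. Of 16 flanking protein-coding genes, the median log2 fold change was 0.08, with a range of -0.74 to 0.57. Of the 16, 3 had both Hoxb1Mu libraries below both WT libraries, against 27.1% of all genes tested. Of the 12 with an adjusted p, 0 were called by DESeq2, which called 2.71% of all such genes lower and 2.01% higher. Opn3, whose gene body lies 305 bases from that of Kmo, had 333 and 252 counts in WT and 310 and 287 in Hoxb1Mu. Its groups thus overlapped where those of Kmo did not. The next closest, Nlrx1 at 1.25 kb from Pdzd3, had 63.7 and 65.4 counts in WT and 100.5 and 75.5 in Hoxb1Mu.

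The difference between the libraries of a group was not in the stated rule, but the 8 genes are all genes that DESeq2 called, and a call depends on this spread. Genes with falls as deep and wider gaps between the Hoxb1Mu libraries, such as Padi2 (-1.52), Postn (-1.48) and Lyve1 (-1.44), were not called and are not among the 8, so the differences below are given as a description. These 3 were picked after their values were seen. In Hoxb1Mu 2 all 8 genes were lower than in Hoxb1Mu 1 by over 1.5-fold, which held for 1038 of 15760 genes (6.59%). The log2 difference between these libraries had a median of -0.92 for the 8 genes and of -0.0014 for all genes tested. It was deepest for Pdzd3 (-1.15), Sod3 (-1.05) and Prlr (-1.02) and least for Fmo4 (-0.64). For Slco4c1 the ratio of Hoxb1Mu 1 to Hoxb1Mu 2 was 1.90 (exact binomial 95% interval of the reads, 1.62 to 2.22), and for Fmo4 it was 1.57 (1.13 to 2.19). These intervals treat each read as an independent draw and cover no variation between embryos. Amplified reads are not independent molecules, so the intervals are likely too narrow even for counting error.

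In WT the differences were smaller and in the other direction. All 8 genes were higher in WT 2 than in WT 1, as were 8058 of all 15760 genes (51.1%). The median log2 difference was 0.30 for the 8 genes and 0.0041 for all genes. Pdzd3 differed most (0.51) and Prlr least (0.0100). The 8 genes therefore shared an order of libraries, with WT 2 the highest, then WT 1, Hoxb1Mu 1 and Hoxb1Mu 2.

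**Figure D3:**
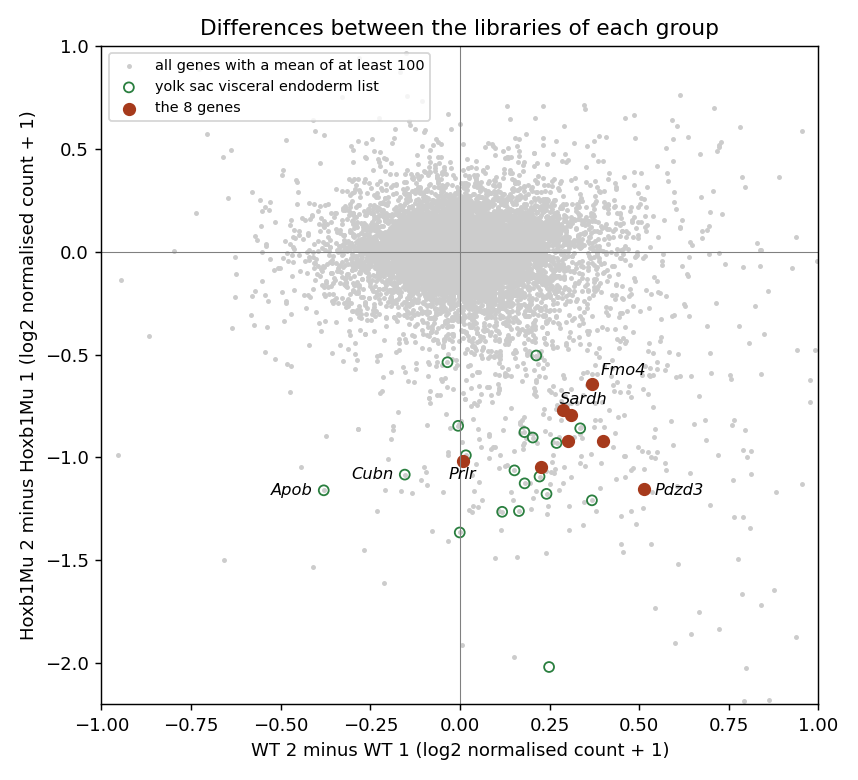
Log2 difference WT 2 minus WT 1 (horizontal axis) against Hoxb1Mu 2 minus Hoxb1Mu 1 (vertical axis), 1 point per gene with a mean of at least 100, with the 8 genes in red and the yolk sac visceral endoderm list as green circles (83 genes lie outside the plotted range). The 8 genes and most of the list lie below the bulk of the genes.

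The share of each of the 8 genes in their sum differed little between libraries. Their summed counts were 2505 and 3098 in the WT libraries, against 1485 for Hoxb1Mu 1 and 778 for Hoxb1Mu 2. Slco4c1 made up 30.0%, 29.9%, 30.7% and 30.9% of the sum in these libraries, and Klb 20.8%, 22.2%, 21.5% and 21.6%. Prlr took between 10.2% and 12.5% of the sum and Pdzd3 between 7.03% and 9.56%, the former highest in WT 1 and the latter in WT 2.

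Markers of yolk sac visceral endoderm were also lower in the Hoxb1Mu libraries. Of the 19 measured markers, all 19 were lower in both Hoxb1Mu libraries than in both WT libraries, with a median log2 fold change of -1.10, and 0 were called by limma, DESeq2 or edgeR (18, 12 and 17 at an unadjusted p under 0.05). Their summed level was 65.9% of the WT mean in Hoxb1Mu 1 and 33.6% in Hoxb1Mu 2, where the sum of the 8 genes stood at 53.0% and 27.8%. Between the Hoxb1Mu libraries the median log2 difference of the markers was -1.08, and 17 of 19 were lower in Hoxb1Mu 2 by over 1.5-fold. In WT 2, 14 of 19 were higher than in WT 1, with a median difference of 0.18. In bulk RNA of dissected tissue, fewer cells of a type and less RNA per cell cannot be told apart, and the part that the amount of yolk sac tissue in each library had in the levels of the 8 genes was not tested.

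Markers of other tissues differed in how they varied. The foregut endoderm list had summed counts of 3375 to 3716 and a median log2 fold change of -0.0019. The list of parietal endoderm, another extraembryonic layer, had 48830 to 54785 and -0.09. Of its 8 markers, 3 were lower and 2 higher in both Hoxb1Mu libraries, and DESeq2 called Lama1 higher (adjusted p = 0.0228). In Hoxb1Mu 2, 7 of the 8 were lower than in Hoxb1Mu 1, 0 by over 1.5-fold (median log2 difference -0.11). The 8 cardiomyocyte markers were higher in both Hoxb1Mu libraries, with a median of 0.36, and 7 were called by DESeq2. The neural tube list had a median of 0.41, with 6 of 8 markers higher in both Hoxb1Mu libraries and 4 called by DESeq2. Over all 15760 genes tested, 4166 had both Hoxb1Mu libraries above both WT libraries, and DESeq2 called 2.01% of genes with an adjusted p higher. Medians of the SHF and endothelium lists were both 0.13. The 8 red blood cell markers had the same signs as the 8 genes within the groups, with all 8 lower in Hoxb1Mu 2 than in Hoxb1Mu 1 (median log2 difference -1.58, 7 by over 1.5-fold) and all 8 higher in WT 2 than in WT 1. Their median log2 fold change was -0.96, and 1 of 8 had both Hoxb1Mu libraries below both WT libraries. The WT gap had a median of 3.76, where the 8 genes differed by at most 0.51. All 4 measured trophoblast markers were also lower in Hoxb1Mu 2 than in Hoxb1Mu 1 (median -1.96), with a median log2 fold change of 0.0057. They were split, with -3.75 for Prl2c2 and -3.58 for Prl3d1 but -0.33 for Plac1 and -0.14 for Elf5. Prl2c2 and Prl3d1 had only 2 and 7 reads in Hoxb1Mu 2. The part of these tissues in the levels of the 8 genes was not tested.

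The gauges were far more abundant than the 8 genes. Apob had 45985 and 35341 normalised counts in WT 1 and WT 2 and 23517 and 10523 in Hoxb1Mu 1 and Hoxb1Mu 2. Its log2 fold change was -1.36 ± 0.35 (SE), equal to the median of the 8 genes, and it was not called (adjusted p = 0.238 by DESeq2). Cubn had 27715 and 24912 against 16973 and 8007, a log2 fold change of -1.17 ± 0.32 (SE; adjusted p = 0.270 by DESeq2). In both gauges Hoxb1Mu 2 was the lowest library and Hoxb1Mu 1 the next, as in the 8 genes. In WT, unlike the 8 genes, both gauges were lower in WT 2, by -0.38 for Apob and -0.15 for Cubn on the log2 scale.

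Relative to Apob, the groups overlapped for all 8 genes. Per 1000 counts of Apob, Slco4c1 had 16.3 and 26.2 in WT against 19.4 and 22.9 in Hoxb1Mu, and Klb 11.3 and 19.4 against 13.6 and 16.0. Prlr had 6.79 and 8.90 against 7.67 and 8.43. For each of the 8 genes both Hoxb1Mu libraries lay between WT 1 and WT 2. The Hoxb1Mu mean per Apob ranged from 80.9% of the WT mean for Pdzd3 to 102.6% for Prlr. The median log2 fold change of the 8 genes was -1.36 before division by Apob and -0.00031 after it. It was -0.35 without WT 1 and 0.34 without WT 2, since Apob and the 8 genes differed in opposite directions between these libraries.

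Relative to Cubn the 8 genes were somewhat lower in Hoxb1Mu, with a median log2 fold change of -0.19 and a range of -0.41 to -0.13. The groups overlapped for 6 of the 8. Prlr, with 11.3 and 12.6 per 1000 counts of Cubn in WT and 10.6 and 11.1 in Hoxb1Mu, and Pdzd3, with 7.47 and 11.9 against 7.25 and 6.83, had both Hoxb1Mu libraries below both WT libraries by small margins. The median was 0.04 without WT 2 and -0.42 without WT 1.

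When the mean log2 level of the whole yolk sac list was used, 7 of the 8 genes lay lower in both Hoxb1Mu libraries and only Fmo4 overlapped. The median was then -0.27, and the genes ranged from -0.49 to -0.21. The list had a smaller log2 fold change (-1.09) than Apob, so the size of what was left, and whether groups overlapped, moved with the gauge.

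**Figure D4:**
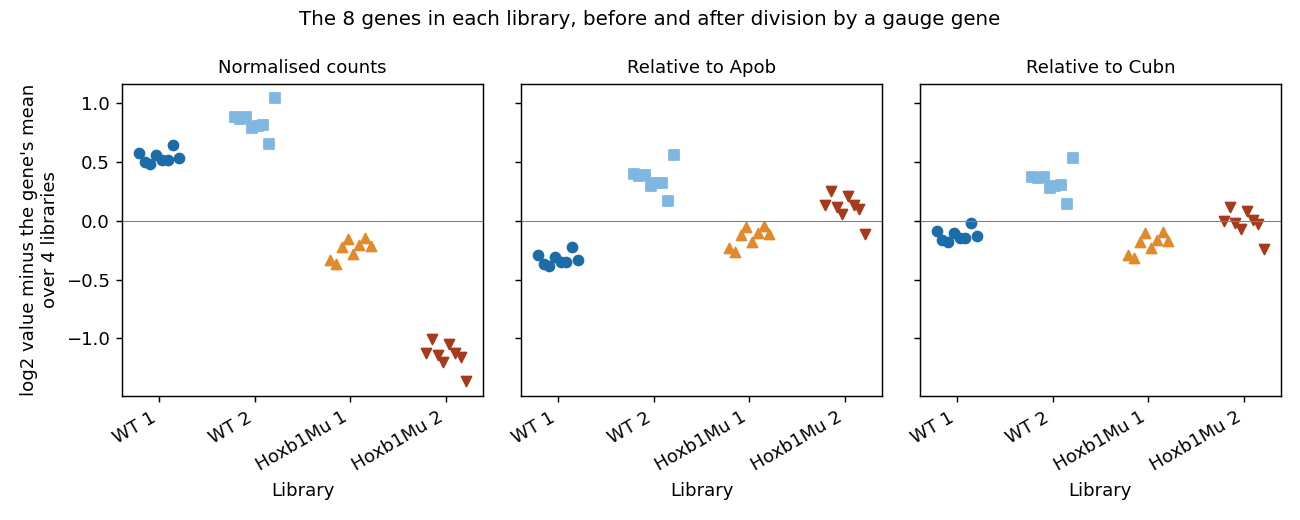
Log2 level of each of the 8 genes in the 4 libraries, centred on the mean of the gene, before division by a gauge (left), relative to Apob (middle) and relative to Cubn (right), 1 point per gene and library. Before division the Hoxb1Mu points lie under the WT points, while relative to Apob they lie between those of WT 1 and WT 2 for each gene.

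Genes with a library profile like the mean of the 8 were then listed. Each of 11866 further genes averaging 100 or more was centred on the log2 scale over the 4 libraries, and the distance from the mean profile was taken as the root mean square. The closest were Amn (0.0734), the partner of Cubn, Folr1 (0.0852), a folate receptor, Abcc2 (0.0884), an export pump of the apical membrane, Nxf7 (0.0975), and Apoa1 (0.100), an apolipoprotein of high density lipoproteins. Amn had 2240 and 2537 normalised counts in WT and 1340 and 729 in Hoxb1Mu, and Abcc2 had 1110 and 1272 against 649 and 297. The 8 genes themselves had distances of 0.0290 (Slco4c1) to 0.151 (Pdzd3). Of the 18 yolk sac markers with a mean of at least 100, 13 were among the nearest 100 genes and 18 among the nearest 500. At this mean there were 12 SHF, 8 cardiomyocyte, 7 foregut and 8 parietal endoderm markers. There were also 5 red blood cell, 1 trophoblast, 7 neural tube and 8 endothelial markers. Of the endothelial markers 1 was among the nearest 500, and of the other lists 0 were. In these other lists the closest marker stood at place 530 for parietal endoderm, 615 for SHF and 622 for trophoblast. For the rest it stood at 1016 to 11600. These are distances over 4 libraries that share the contrast by which the 8 genes were picked, and they are given as a description.

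The 8 genes stood between ranks 8 and 28 by log2 fold change among the 11887 genes averaging 100 or more, beside many that DESeq2 did not call. All 8 were called lower by DESeq2, where 2.71% of genes were, but the call comes from the contrast that chose them and nothing is read from it. Just inside the range, Prlr had -1.30, and just outside it the pluripotency factor Pou5f1 had -1.28, with 402 and 442 counts in WT and 151 and 199 in Hoxb1Mu. Just above Pdzd3 at -1.58 stood Rsad1, with 304 and 297 against 92.3 and 108. In both of these neighbours in rank Hoxb1Mu 2 was higher than Hoxb1Mu 1, the reverse of the 8 genes. On the threshold of the mean, Sardh had 110 and lay just inside. Bhmt2, at 90.7 with a log2 fold change of -1.63, lay just outside, as 1 of 58 genes below the threshold that fell as far as Prlr. None of the 58 was called, and the lowest mean of a gene with an adjusted p from DESeq2 was 107.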

How the data were processed

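RNA was taken from the SHF region of E8.5 embryos, and per the labels 2 ng of total RNA were amplified into cDNA (random plus poly-T primers). Per the submitters' processing notes, the authors used bcl2fastq 2.17.1.14, STAR 2.5.2 on mm10, HTSeq, R 3.3.4 and DESeq2. The annotation release and the strand setting of counting are not given in the sources used here. The deposited signal for each gene and library is a read count that the authors divided by a size factor of the library, and 100% of the values came out as whole reads (tolerance 0.001) when this step was undone. The 4 columns with the authors' comparison (log2 fold change, Wald statistic, p and adjusted p) were not used. In 13 rows the gene symbol had been turned into a date, and these rows were tested but not named.

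The 15760 genes averaging 10 or more were tested (43 were not) with limma-trend (limma 3.58.1, R 4.3.3) on log2(normalised value + 1), 2-sided, without covariates, with Benjamini-Hochberg adjustment and a threshold of 0.05. Fold changes on this scale understate changes of low genes. The quasi-likelihood test of edgeR 4.0.16, and DESeq2 1.42.0, were run on the recovered counts as alternatives, and all 3 were tested on simulated data. Coordinates are those of GENCODE vM21 (mm10), joined by symbol. The depth behind each value is the reads in listed genes. Further alternatives were a pseudocount of 10, a minimum mean of 50, equal library totals, and leaving out each library. The replicate numbers follow accession order and pair no libraries. Named were the 8 genes, the gauges, Hoxb1, in each pathway list the genes called by any tool or else the 2 with the highest mean, the neighbours in rank, and the 5 genes of the nearest profile. Sod1, Sod2, Fgfr1, Fgfr4 and genes flanking or overlapping the 8 were named outside this rule, for their role or position, after their values were seen, as were others where the text says so. The members and lists were chosen with earlier results of these data known.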

Additional observations from a re-analysis of the deposited data

How the results depend on the processing

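The number of genes called was 0 by limma and 556 by DESeq2 on the recovered reads, and in the pathway lists it was 0 and 10. With each library left out in turn, limma called 0 to 884 genes and 0 to 20 in the lists, the most without Hoxb1Mu 1. The same DESeq2 fits, chosen after seeing the data, called 582 genes without Hoxb1Mu 1, 119 without Hoxb1Mu 2, 88 without WT 1 and 63 without WT 2, and 13, 3, 3 and 2 in the lists. The cause was not tested. The 8 genes under 8 alternatives each gave 64 log2 fold changes, all negative, from -2.16 to -0.79. The median over the 8 stood at -0.92 without Hoxb1Mu 2, at -1.82 without Hoxb1Mu 1, and at -1.33 to -1.29 under other scalings, pseudocounts and tools. The median difference between the Hoxb1Mu libraries was -0.92 to -0.89. No paired analysis was possible because the labels give no replicate numbers that pair the libraries. With 2 libraries per group and 46 to 962 reads per gene and library, counting error limits the lowest of the 8 genes most.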

Other observations

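Several genes with falls as deep as those of the 8 had another library pattern. Cyp11a1, the enzyme that starts steroid synthesis, had 272 and 1184 normalised counts in WT and 1019 and 42.4 in Hoxb1Mu. Padi2, which converts arginine to citrulline in proteins, had 198 and 815 against 532 and 35.8. In both genes Hoxb1Mu 1 lay between the WT libraries, as in Tdo2 and Fmo1, and DESeq2 did not call them. They were picked after their values were seen.

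Yolk sac markers also differed among themselves in WT. Apob, Cubn and Lrp2, the 3 markers with at least 10000 exonic bases, were lower in WT 2 than in WT 1, by -0.38, -0.15 and -0.03 on the log2 scale. Of the 16 shorter markers 14 were higher in WT 2, and the others, Spink1 and Fgg, had -0.0049 and -0.00044. Over the 1258 genes of at least 10000 exonic bases and a mean of at least 100, the median of this difference was -0.01, where it was -0.0032 over the 1233 genes under 2000 bases. Prlr, with 15339 exonic bases the longest of the 8 genes, also had the smallest difference between WT 2 and WT 1. The part of exonic length in these differences was not tested.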
